A study of Mus musculus with 12 samples.

Results

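The genes described here encode the structural, regulatory and assembly proteins of the proteasome. They were chosen by symbol: 7 genes of the alpha ring, 4 non-catalytic genes of the beta ring, 6 ATPases and 4 other subunits of the base of the 19S cap, 8 subunits of its lid, the alternative cap gene Psme4, and 4 chaperones that assemble the 20S core. All 34 were found among the 43629 genes of the count table, and all 34 had enough counts to be tested. RNA was measured in 12 poly(A) libraries of mouse cortical neuronal cultures. The 6 IFNG libraries came from cultures given a lentivirus that overexpresses Ifng, the interferon-gamma gene, at 7 days in vitro, and harvested 10 days later. The other 6 libraries, labelled Control, carry an identical treatment protocol, and whether those cultures received a virus without Ifng is not stated. No strain, genotype or animal age is given, and the series compares neurons under lasting interferon-gamma exposure with control neurons.

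The proteasome is the protease of the cytosol and nucleus that degrades proteins tagged with ubiquitin. Its 20S core is a barrel of stacked rings: alpha subunits form the outer rings and the gate, and beta subunits form the inner rings, of which only some carry active sites. The 19S cap recognises ubiquitin, removes it, and unfolds the substrate with a ring of ATPases before feeding it into the core. Interferon-gamma is known for replacing the catalytic beta subunits with their immunoproteasome counterparts, while the structural subunits, the cap and the assembly chaperones are used by both forms.

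Of the 34 genes, 13 rose in IFNG libraries and none fell. Those 13 make up 38.2% of the 34, while of all 15241 genes tested 14.3% were called higher, 9.79% lower and 24.1% either (adjusted p under 0.05, quasi-likelihood F-test of edgeR, Benjamini-Hochberg adjusted over all genes tested). Among the 11112 genes within the abundance range of the 34, 15.4% were higher and 11.4% lower. In 3 of the 34, Psmb2, Psmd4 and Psmg4, every IFNG library lay above every Control library, and in none did every IFNG library lie below; over all genes tested those shares were 8.75% and 4.09%. All rises were below 2-fold: the largest were Psmg4, by 75.0%, and Psmb2, by 53.1%, and on the log2 scale the other 11 spanned 0.25 (Psmc5) to 0.42 (Psma5). The median log2 fold change of the 34 genes was 0.19, against -0.016 over all genes tested, and 31 of the 34 had a value above 0, as did 48.0% of all genes tested and 47.6% of those in the same abundance range. In fits without the library IFNG 5, 27 of the 34 lay above 0 (median 0.16), and without Control 4 the number was 32 (median 0.25). With library totals in place of composition-corrected (TMM) scaling 28 of the 34 lay above 0. With totals that leave out the genes called higher 33 did. Those genes were called in these same data, and leaving them out raised the median of all genes by 0.11. Gains under these totals, here and below, therefore follow in part from how the totals were made.

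Among these groups of genes, the share that rose was highest in the alpha and non-catalytic beta rings of the core. In the alpha ring 4 of 7 genes rose (median log2 fold change 0.35), and in the non-catalytic beta ring 3 of 4 did (0.30). Among the ATPases of the base 2 of 6 rose (median 0.17), among the other base subunits 1 of 4 (0.17), in the lid 2 of 8 (0.16) and among the assembly chaperones 1 of 4 (0.10). Psme4 did not pass, at -0.12 ± 0.093 (log2 fold change ± standard error). These counts describe each group of genes, and the difference between the groups of genes was not tested. None of the 3 catalytic genes of the core, which are not among the 34, passed. With totals that leave out the genes called higher, 4 genes of the alpha ring and 4 of the beta ring rose. Under those totals 3 ATPases, 3 other base subunits and 5 lid genes rose.

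**Figure D1:**
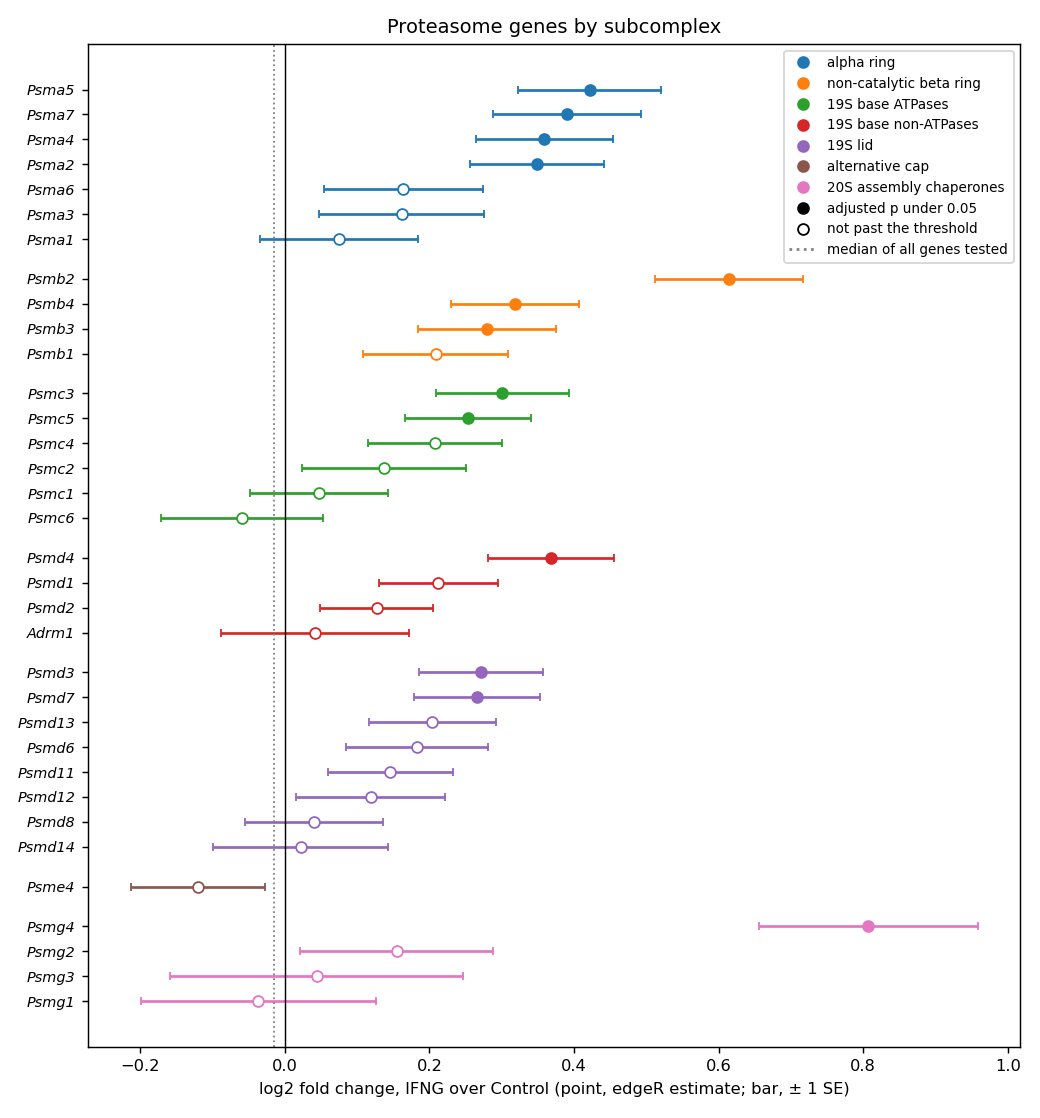
Log2 fold change of each of the 34 genes, IFNG over Control, with ± 1 standard error; filled points passed the adjusted p threshold of 0.05, open points did not, and the dotted line is the median of all genes tested (-0.016). Psmg4 (0.81) and Psmb2 (0.61) lie farthest to the right, and no filled point lies left of 0.

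Several features of the libraries bear on all of these values. Library totals ran from 13875435 to 34239380 counts in IFNG and from 14408343 to 20299507 counts in Control libraries. Ifng itself was read at 4.98 to 17.9 CPM in IFNG libraries, against 0 to 0.170 CPM in Control libraries, where 7 counts were found in all (log2 fold change 7.27 ± 0.48, adjusted p = 3.45e-10; exact two-sided permutation p = 0.00216, the smallest that 924 arrangements can give). Neuronal markers were abundant in both groups, at 3378 to 4407 summed CPM in IFNG libraries and 4616 to 5110 summed CPM in Control ones, and 4 of 8 fell in IFNG libraries. All 10 tested astrocyte markers of 12 rose, and their sum was 3767 to 6230 CPM in IFNG libraries and 2000 to 2211 CPM in Control ones, while Gjb6, a defining astrocyte marker, had 0 counts in IFNG and 12 in Control libraries. Of 10 microglial markers 3 could be tested, P2ry12 and Sall1 rose, and the list summed to 36.5 to 51.8 CPM in IFNG libraries, against 25.8 to 32.8 CPM in Control libraries. Of 9 oligodendrocyte lineage markers 8 were tested, Olig2 and Pdgfra fell, and 3 had a log2 fold change above 0. Of 7 fibroblast and mural markers 5 were tested, Pdgfrb rose, and 2 had a log2 fold change below 0. Of 4 markers of dividing cells Mki67 fell, and 1 had a log2 fold change above 0. Of 5 endothelial markers only Pecam1 could be tested and did not pass, with Cldn5 at 0 counts in both groups. The part of a changed cell makeup in the proteasome values was not tested. In such bulk samples, fewer cells of a type and less RNA per cell cannot be told apart.

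Control 4 stood apart from the other Control libraries in the proteasome genes. The 34 genes summed to 3226 to 3909 CPM in the IFNG libraries, against 3474.6 CPM in Control 4 and 2969 to 2992 CPM in the other 5 Control libraries. Control 4 was the highest Control library for 23 of the 34 genes, which is the case for 24.7% of all genes tested. Its astrocyte marker sum, 2061 CPM, lay within the range of the other Control libraries. Over all genes it differed from each of them by 20.3 to 41.2 chi-square per gene, against 7.44 to 27.7 between those others. The part of this in the proteasome values of Control 4 was not tested. Among the IFNG libraries, IFNG 5 was the highest for 23 of the 34 genes (28.7% of all genes tested). IFNG 5 also had the lowest neuronal marker sum, 3378 CPM against 3928 to 4407 CPM in the other IFNG libraries, and differed from each of them by 51.8 to 85.8 chi-square per gene over all genes, against 14.8 to 47.1 between the other IFNG libraries; the part of this in the proteasome values was not tested. Without Control 4 the count of genes that rose was 15, and without Control 2 it was 8. Leaving out IFNG 5 alone gave 13, as did leaving out both Control 4 and IFNG 5.

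**Figure D2:**
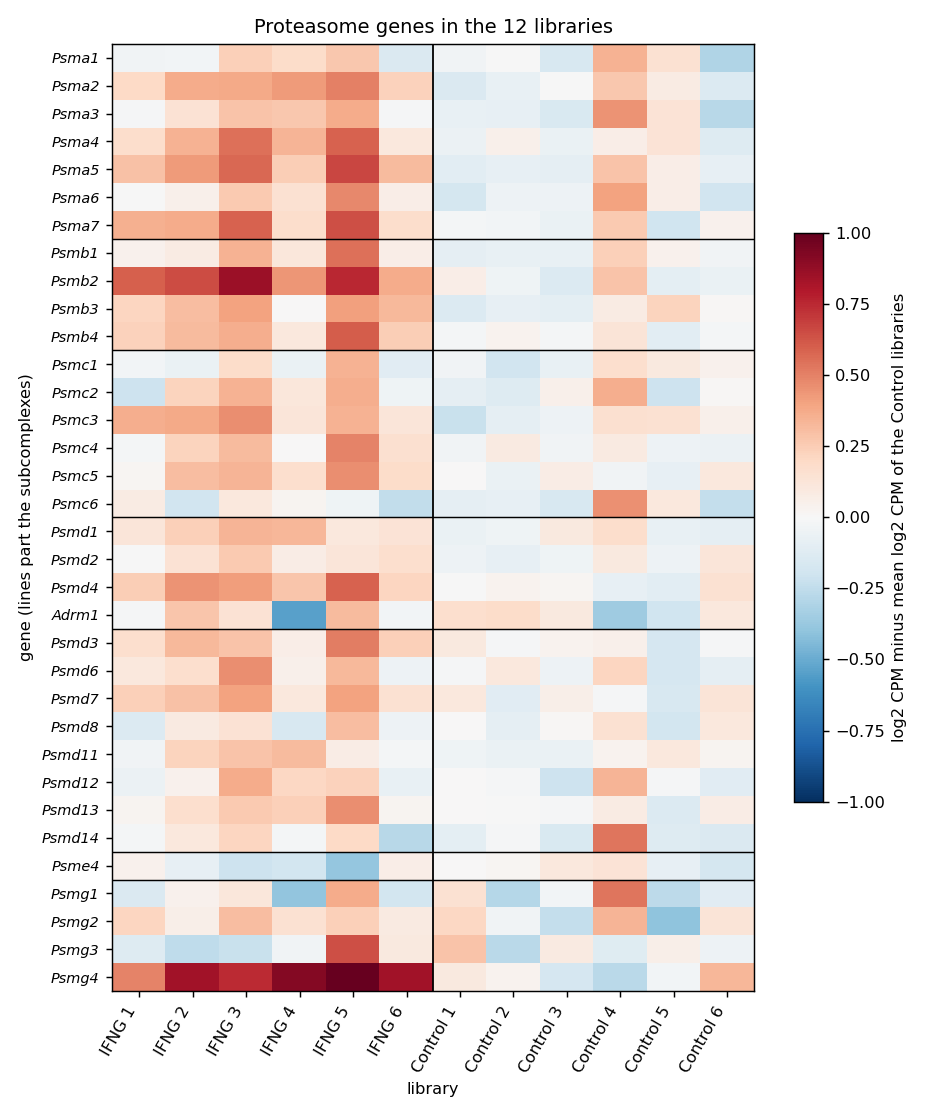
Each gene's log2 CPM in each library minus the mean log2 CPM of the 6 Control libraries, IFNG libraries on the left, Control libraries on the right, with lines between the groups of subunits. Psmb2 and Psmg4 are red in all 6 IFNG libraries, and the Control 4 column is red for most genes of the alpha ring.

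The promoters of Psmg4, Psmd4 and Psmb3 are shown because they hold the core of an interferon-stimulated response element (ISRE), the motif bound by interferon regulatory factors, and that of Psme1 is shown beside them as a gene of the interferon-inducible cap, the 1 of 5 such comparison genes with a match (the windows of Psmb8, Psmb9, Psmb10 and Psme2 hold no match). RefSeq promoter windows (GRCm38.p6, 250 bases before the start site and the first 50 transcribed bases) matched 28 of the 34 genes. Psmb1, Psmb2, Psmc3, Psmd3, Psmd7 and Psmg2 had no window and could not be searched, and of these Psmb2, Psmc3, Psmd3 and Psmd7 rose. Capitals mark GAAA, any 2 bases and GAAA again, or the reverse complement of that, and each sequence is given 5′ to 3′ on the strand of its gene.
Psmg4, chr13:34162714-34163013, plus strand: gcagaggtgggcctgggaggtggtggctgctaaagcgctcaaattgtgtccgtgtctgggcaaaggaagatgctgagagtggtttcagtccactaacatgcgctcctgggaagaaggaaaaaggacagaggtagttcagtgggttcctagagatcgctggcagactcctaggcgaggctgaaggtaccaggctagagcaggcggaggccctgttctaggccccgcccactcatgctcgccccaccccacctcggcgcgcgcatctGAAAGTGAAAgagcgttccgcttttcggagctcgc
Psmd4, chr3:95042565-95042864, minus strand: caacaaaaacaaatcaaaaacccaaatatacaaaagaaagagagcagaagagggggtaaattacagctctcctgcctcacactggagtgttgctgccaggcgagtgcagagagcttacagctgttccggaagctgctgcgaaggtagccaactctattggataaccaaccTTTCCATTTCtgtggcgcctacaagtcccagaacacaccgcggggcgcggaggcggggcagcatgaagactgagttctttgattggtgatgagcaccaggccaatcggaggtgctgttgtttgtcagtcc
Psmb3, chr11:97703184-97703483, plus strand: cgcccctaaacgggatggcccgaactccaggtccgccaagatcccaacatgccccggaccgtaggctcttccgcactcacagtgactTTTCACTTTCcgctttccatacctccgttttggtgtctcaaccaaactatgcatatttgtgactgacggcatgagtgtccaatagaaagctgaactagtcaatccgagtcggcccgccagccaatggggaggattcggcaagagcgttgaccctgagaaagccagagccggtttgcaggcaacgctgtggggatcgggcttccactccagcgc
Psme1, chr14:55578244-55578543, plus strand: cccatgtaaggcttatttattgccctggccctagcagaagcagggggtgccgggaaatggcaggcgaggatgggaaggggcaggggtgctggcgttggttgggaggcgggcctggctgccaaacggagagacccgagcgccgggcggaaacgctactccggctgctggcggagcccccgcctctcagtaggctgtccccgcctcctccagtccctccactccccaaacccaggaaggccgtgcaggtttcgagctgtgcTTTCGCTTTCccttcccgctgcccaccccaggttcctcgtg
In Psmg4 the match GAAAGTGAAA begins at transcribed base 16, and in Psme1 the match TTTCGCTTTC begins at transcribed base 10. The match TTTCCATTTC begins 80 bases before the start of Psmd4, and TTTCACTTTC begins 163 bases before the start of Psmb3.

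Of the 28 genes with a window, these 3 held the ISRE core, or 10.7%, against 3.99% of all 27025 genes with a promoter window. The core of the antioxidant response element TGACNNNGC (N is any base), through which Nfe2l1 and Nfe2l2 act, was found in Adrm1, Psmc6, Psmd12 and Psme4, or 4 of 28, against 3781 of all 27025 genes. The NF-Y box CCAAT was found in 11 of the 28, or 39.3%, against 41.1% of all genes. Both strands were searched, no match in these genes overlapped a match of another motif, and a match is a run of letters and not a measured binding site. The motifs were chosen with earlier results of these data known, not every motif searched is given here, and no relation between a motif and a change in level was tested.

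The alpha ring forms the surface on which caps dock and the gate that they open. Psma5 (GRCm38 chromosome 3, 108256926 to 108279974, plus strand) had a lowest, median and highest level of 73.8, 80.8 and 98.9 CPM in IFNG libraries, against 58.0, 58.9 and 76.2 CPM in Control libraries. Only Control 4, the highest Control library, reached into the IFNG range. Psma5 rose (log2 fold change 0.42 ± 0.099, adjusted p = 0.00354). Psma7 (chromosome 2, 180036374 to 180042433, minus strand) had 85.2, 97.0 and 118 CPM in IFNG libraries, against 65.8, 74.3 and 90.6 CPM in Control libraries (0.39 ± 0.10, adjusted p = 0.00788), and again the groups overlapped. Psma4 had 97.2, 115 and 136 CPM in IFNG libraries, against 82.9, 90.4 and 99.7 CPM in Control libraries (0.36 ± 0.095, adjusted p = 0.00845). Psma2 had 75.9, 85.9 and 93.9 CPM in IFNG libraries, against 60.1, 64.5 and 80.0 CPM in Control libraries (0.35 ± 0.092, adjusted p = 0.00866). The median IFNG library lay above the highest Control library for all 4 of these genes, although the ranges overlapped in each.

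The other 3 alpha genes did not pass. Psma3, which had the most counts of the ring, had 137, 160 and 179 CPM in IFNG libraries and 114, 131 and 190 CPM in Control ones (0.16 ± 0.11, adjusted p = 0.339). Its highest library of all 12 was Control 4, and without that library its log2 fold change was 0.28 (adjusted p = 0.0488). Psma6 stood at 0.16 ± 0.11 (adjusted p = 0.311) and Psma1 at 0.075 ± 0.11 (adjusted p = 0.676), and for both Control 4 was the highest Control library. The 95% intervals of these log2 fold changes reached 0.40 for Psma3, 0.39 for Psma6 and 0.30 for Psma1, so rises of the size seen in Psma2 or Psma4 lie within the first and second of them. Psma3 shares a stretch of 665 bases with the pseudogene Gm13835 without a mismatch, and Gm13835 held 3.47% of their joint counts.

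Psmb2 had the smallest p of the 34 genes. It encodes a beta subunit without an active site and lies on chromosome 4 (126677630 to 126709714, plus strand). Its lowest, median and highest levels were 67.3, 80.4 and 94.4 CPM in IFNG libraries, against 47.3, 50.2 and 63.3 CPM in Control libraries. Every IFNG library lay above every Control library, and Control 4 was again the highest Control. The log2 fold change was 0.61 ± 0.10 (adjusted p = 0.000133), and it was one of 2 genes, with Psmg4, that also passed a test against a fold change of 1.2.

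Psmb4 had 117, 132 and 165 CPM in IFNG libraries and 101, 107 and 119 CPM in Control ones (0.32 ± 0.089, adjusted p = 0.0120). Psmb3 had 49.7, 61.8 and 66.0 CPM in IFNG libraries, against 45.2, 48.5 and 57.9 CPM in Control libraries (0.28 ± 0.095, adjusted p = 0.0384). Psmb3 lay near the threshold: it did not pass without IFNG 2, 3 or 6 or without Control 1, 2 or 3, and its adjusted p over the 12 fits that leave out 1 library was 0.0153 to 0.0902. It also did not pass with library totals (adjusted p = 0.0763) or with no filter (0.0523). Psmb1 had 105, 109 and 149 CPM in IFNG libraries, against 95.5, 97.9 and 120 CPM in Control libraries (0.21 ± 0.10, adjusted p = 0.144). The catalytic beta genes, which share these rings, had log2 fold changes in the same range and did not pass: Psmb5 0.27 ± 0.12, Psmb6 0.17 ± 0.10 and Psmb7 0.21 ± 0.095 (adjusted p = 0.110, 0.234 and 0.116). With totals that leave out the genes called higher, which move log2 fold changes up, Psmb5 and Psmb7 passed (adjusted p = 0.0276 and 0.0189). Their summed level in Control 4, 196.3 CPM, was the lowest of all 12 libraries, whereas its sum over the 34 genes was the highest of the Control libraries.

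**Figure D3:**
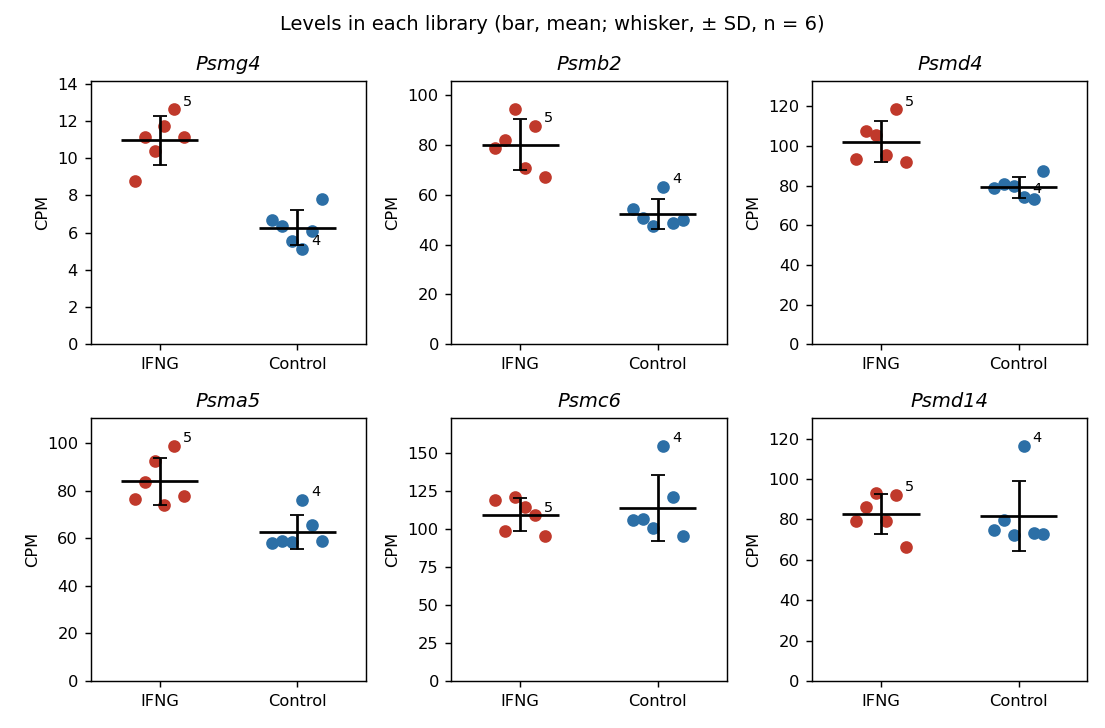
CPM of 6 genes in each library, with the mean (bar) and SD (whisker) of 6 libraries per group, IFNG left and Control right; the numbers 5 and 4 mark IFNG 5 and Control 4. The groups do not overlap for Psmg4, Psmb2 and Psmd4, whereas Control 4 is the highest point of all for Psmc6 (155 CPM) and Psmd14 (116 CPM).

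The 6 ATPases of the base form the ring that unfolds substrates and pushes them into the core. Psmc3 had 110, 129 and 139 CPM in IFNG libraries, against 86.5, 101 and 113 CPM in Control libraries (0.30 ± 0.092, adjusted p = 0.0217). Psmc5 had 80.6, 94.3 and 109 CPM in IFNG libraries, against 75.2, 78.6 and 85.3 CPM in Control libraries (0.25 ± 0.087, adjusted p = 0.0392). The median IFNG library exceeded the highest Control library in both. Psmc3 did not pass without Control 1 or Control 2 (adjusted p over the 12 fits 0.0129 to 0.0619). Psmc5 did not pass without IFNG 2, 3 or 5 or without Control 1, 2, 3 or 5 (0.0204 to 0.0837), and neither gene passed with library totals. Psmc5 also did not pass with no filter (adjusted p = 0.0657), with a replicate block (0.0621) or without both Control 4 and IFNG 5 (0.0646). Psmc3 shares 215 exon bases with Slc39a13 on the opposite strand, and as the strand setting is not given, reads there cannot be told apart; Slc39a13 stood at 0.25 ± 0.12 (adjusted p = 0.161).

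Of the other ATPases, Psmc4 stood at 0.21 ± 0.093 (adjusted p = 0.116) and Psmc2 at 0.14 ± 0.11 (adjusted p = 0.421). Psmc1, with the most counts among those that did not pass, had 119, 125 and 164 CPM in IFNG libraries and 112, 129 and 144 CPM in Control ones (0.047 ± 0.096, adjusted p = 0.773). Psmc6 had 95.3, 112 and 121 CPM in IFNG libraries, against 95.3, 106 and 155 CPM in Control libraries (-0.059 ± 0.11, adjusted p = 0.753). The value of 155 CPM is that of Control 4, and without it the log2 fold change of Psmc6 was 0.059.

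The non-ATPase subunits of the base dock shuttle proteins and bind ubiquitin chains. Psmd4, a ubiquitin receptor on chromosome 3 (95032694 to 95042614, minus strand), had 91.8, 100.3 and 118 CPM in IFNG libraries, against 73.2, 79.2 and 87.5 CPM in Control libraries. The groups did not overlap, and Control 4 lay inside the Control range for this gene. Psmd4 rose (log2 fold change 0.37 ± 0.087, adjusted p = 0.00358). The scaffold genes Psmd1 and Psmd2 did not pass, at 0.21 ± 0.082 (adjusted p = 0.0681) and 0.13 ± 0.078 (adjusted p = 0.261). Psmd2, which had the most counts of all 34 genes, had 297, 327 and 357 CPM in IFNG libraries and 282, 289 and 325 CPM in Control ones. Psmd1 passed without Control 4 (0.26, adjusted p = 0.0263), without IFNG 5 and in DESeq2, and its adjusted p over the 12 fits that leave out 1 library was 0.0263 to 0.135.

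Adrm1, the gene of another ubiquitin receptor, had 57.6, 87.8 and 105 CPM in IFNG libraries, against 65.7, 90.0 and 95.1 CPM in Control libraries (0.042 ± 0.13, adjusted p = 0.859). Control 4 was the lowest Control library here, and IFNG 4 was the lowest of all 12.

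The lid carries the deubiquitinase Psmd14, its partner Psmd7 and scaffold subunits. Psmd3, a scaffold subunit, had 176, 200.2 and 239 CPM in IFNG libraries and 149, 169 and 179 CPM in Control ones (0.27 ± 0.086, adjusted p = 0.0266). Psmd7 had 92.4, 103 and 114 CPM in IFNG libraries, against 76.9, 87.5 and 94.0 CPM in Control libraries (0.27 ± 0.087, adjusted p = 0.0303). Both overlapped between groups, and neither passed with library totals or with the replicate number as a block. Psmd7 also did not pass with no filter (adjusted p = 0.0525). Psmd3 did not pass without IFNG 2, Control 2 or Control 5 (adjusted p over the 12 fits 0.0157 to 0.0592), nor Psmd7 without IFNG 2, IFNG 3, Control 2 or Control 5 (0.0225 to 0.0754). Psmd13 had 100.4, 114 and 136 CPM in IFNG libraries, against 89.6, 98.4 and 105 CPM in Control libraries (0.20 ± 0.088, adjusted p = 0.103). It shares 342 exon bases with Sirt3 on the opposite strand, a gene at -0.015 ± 0.12 (adjusted p = 0.948).

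Psmd14 had 66.2, 82.7 and 93.1 CPM in IFNG libraries, against 72.1, 74.1 and 116 CPM in Control libraries (0.022 ± 0.12, adjusted p = 0.922). Again the highest value was that of Control 4, and the other 5 Control libraries lay between 72.1 and 79.5 CPM. With Control 4 left out Psmd14 stood at 0.16 (adjusted p = 0.250). The remaining lid genes Psmd6, Psmd11, Psmd12 and Psmd8 lay at 0.18 ± 0.098, 0.15 ± 0.086, 0.12 ± 0.10 and 0.040 ± 0.095, and none passed. Psmd11 shares a stretch of 219 bases at 97.3% identity with the transcript A730017L22Rik, which held 13.02% of their joint counts.

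Psme4 encodes a cap, used in place of the 19S particle, known for its role with acetylated histones. It had 64.5, 76.9 and 88.1 CPM in IFNG libraries, against 74.4, 84.7 and 92.7 CPM in Control libraries (adjusted p = 0.385). The 95% interval of its log2 fold change ran from -0.32 to 0.074. The interferon-inducible caps Psme1 and Psme2, which are not among the 34 genes, rose by 2.31 ± 0.11 and 2.43 ± 0.13 on the log2 scale, while the nuclear cap gene Psme3 stood at -0.20 ± 0.099 (adjusted p = 0.157).

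The 4 assembly chaperones act as dimers, Psmg1 with Psmg2 and Psmg3 with Psmg4, that hold alpha subunits while the ring forms. Psmg4 lies on chromosome 13 (34162964 to 34178173, plus strand) and had 8.76, 11.1 and 12.6 CPM in IFNG libraries, against 5.14, 6.22 and 7.80 CPM in Control libraries. Every IFNG library lay above every Control library, and Control 4 was the lowest Control, not the highest. The log2 fold change of 0.81 ± 0.15 was the largest of the 34 genes (adjusted p = 0.000484). Psmg2 had 15.04, 16.4 and 17.8 CPM in IFNG libraries, against 10.9, 14.9 and 18.3 CPM in Control libraries (0.16 ± 0.13, adjusted p = 0.441). Psmg1 and Psmg3 stood at -0.037 ± 0.16 and 0.044 ± 0.20 (adjusted p = 0.903 and 0.906). With 3.91 to 7.30 CPM in IFNG libraries, against 3.88 to 5.70 CPM in Control libraries, Psmg3 had the fewest counts of the 34 genes, and its 95% interval of -0.38 to 0.47 is the widest.

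The level of Psmg4 was then set against that of its partner within each library, along with 5 other pairs of subunits known to bind each other, chosen after the values were seen. A ratio within a library does not depend on how libraries are scaled. The log2 ratio of Psmg4 to Psmg3 was 1.21 ± 0.27 in IFNG and 0.41 ± 0.27 in Control libraries (SD, n = 6 each), a difference of 0.80. The ranges met at their ends, at 0.790 for the lowest IFNG library, IFNG 5, and 0.792 for the highest Control library, Control 6. Without IFNG 5 the lowest IFNG ratio was 1.03 and the difference 0.88. Leaving out IFNG 2 gave a difference of 0.73. As the pairs were picked with the fold changes of their members known, the ratios are given as descriptions, with no test.

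The ATPases Psmc3 and Psmc6 sit next to each other in the ring. Their log2 ratio was 0.19 ± 0.15 in IFNG and -0.16 ± 0.20 in Control libraries (SD, n = 6 each), a difference of 0.35, and without Control 4 the difference was 0.29. Of the other 4 ratios, Psmd7 to Psmd14 differed by 0.23, Psmg2 to Psmg1 by 0.21, Psmc2 to Psmc1 by 0.092 and Psmc5 to Psmc4 by 0.051. In every pair the gene with the larger log2 fold change was written first. The higher mean ratio in IFNG libraries therefore follows from that order and is no shared shift.

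**Figure D4:**
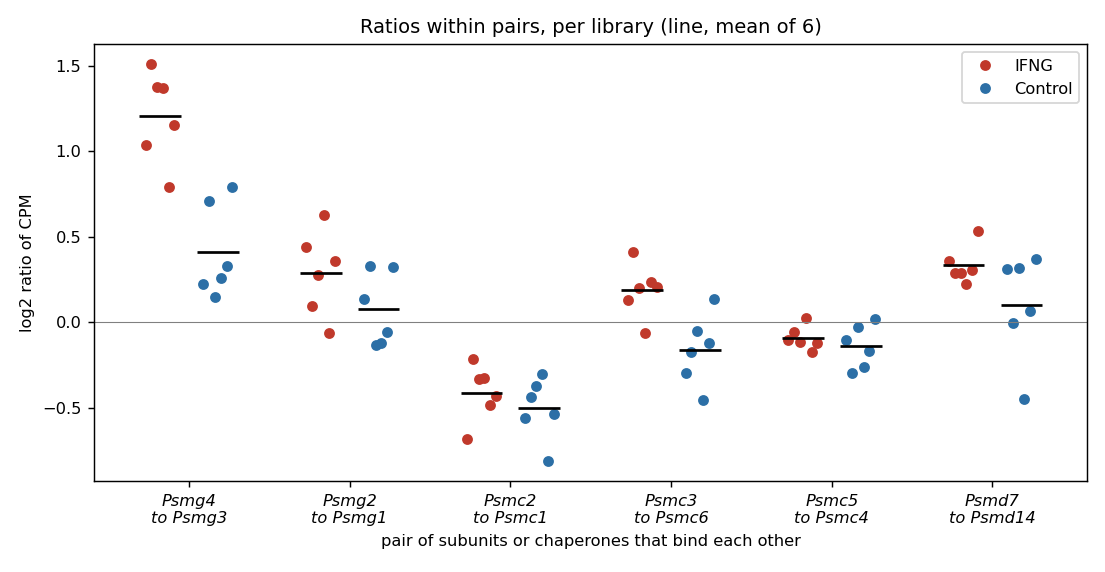
Log2 ratio of CPM of each pair in each library, IFNG red and left, Control blue and right, with the mean of 6 libraries as a line. The largest gap between the groups is that of Psmg4 to Psmg3 (1.21 in IFNG, 0.41 in Control), and the lowest Control point for Psmd7 to Psmd14 (-0.45) is Control 4.

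Summed over each group of subunits, IFNG libraries lay higher on average but reached down to the level of a Control library in each of the groups given here. The alpha ring summed to 737 ± 81.2 CPM in IFNG libraries, against 617 ± 78.7 CPM in Control libraries (mean ± SD of 6). The non-catalytic beta ring summed to 394 ± 45.9 CPM in IFNG libraries, against 313 ± 20.9 CPM in Control libraries. Without Control 4, whose beta sum was 354 CPM, the highest Control sum was 312 CPM, below the lowest IFNG sum of 347 CPM. The lid summed to 879 ± 81.3 CPM in IFNG libraries, against 781 ± 51.5 CPM in Control libraries. The chaperones summed to 45.7 ± 4.68 CPM in IFNG libraries, against 39.6 ± 5.56 CPM in Control libraries, and here Control 4 held the highest Control sum although it held the lowest Control level of Psmg4.

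**Figure D5:**
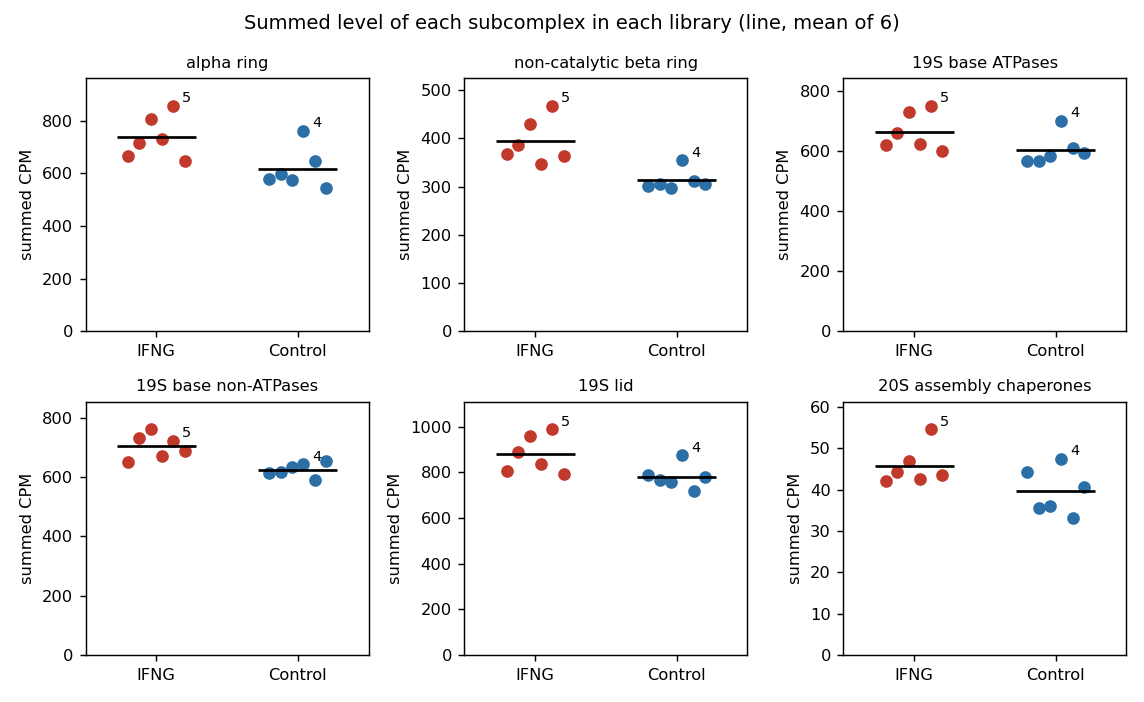
Summed CPM of the genes of each group of subunits in each library, IFNG left and Control right, with the mean of 6 libraries as a line; the numbers 5 and 4 mark IFNG 5 and Control 4. Control 4 lies above the other Control libraries in all groups except the base subunits without ATPase activity, where it reached 644 CPM.

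Levels can be compared between genes only per length, here as CPM per kilobase of merged exons of the GENCODE basic transcripts. On that scale the chaperones and Psme4 were the least abundant. The chaperones had group means of 5.49 to 19.8 CPM per kilobase in IFNG and 5.33 to 13.3 CPM per kilobase in Control libraries. The genes of the core rings had 29.1 to 114 CPM per kilobase in IFNG and 22.9 to 91.8 CPM per kilobase in Control libraries. Psma2 was the lowest of the ring genes and Psmb4 the highest in both groups. The 19S genes spanned 30.3 to 110.0 CPM per kilobase in IFNG and 27.3 to 101 CPM per kilobase in Control libraries, from Psmd11 to Psmd2. Psme4, at 11.97 ± 1.38 CPM per kilobase in IFNG and 13.01 ± 1.05 in Control libraries (SD, n = 6 each), lay among the chaperones. Exon lengths differ between annotations: over all GENCODE transcripts the Control range was 18.1 to 66.4 for the ring genes and 1.63 to 11.3 for the chaperones, which again did not overlap.

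Some of these genes share a start region with a gene on the opposite strand. Of the 34, 11 have such a neighbour starting within 1000 bases, and 7 of those neighbours could be tested. Ss18l1, a chromatin remodelling gene, starts 76 bases from Psma7 and fell by 0.41 (log2 units, adjusted p = 0.0176), while Psma7 rose. Tbp, the TATA-binding protein gene, starts 137 bases from Psmb1 and fell by 0.36 (adjusted p = 0.0175), while Psmb1 did not pass. Mrpl32 beside Psma2 and Ftsj3 beside Psmc5 stood at 0.19 ± 0.14 and 0.21 ± 0.11, and Dnajc2, Sirt3 and Cep76 beside Psmc2, Psmd13 and Psmg2 at 0.0065 ± 0.13, -0.015 ± 0.12 and -0.11 ± 0.15, none of which passed. Apart from Sirt3, these tested neighbours share no annotated exon bases with the proteasome gene beside them.

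Of 35 further genes of the proteasome system, 34 had a row, 32 were tested, 9 rose and 2 fell; Paaf1 had no row under that symbol. The 9 include the immunoproteasome genes and their caps, whose changes were of another size: Psmb8 rose by 8.32 ± 0.28, Psmb9 by 8.16 ± 0.24 and Psmb10 by 3.24 ± 0.14. In Control libraries Psmb8 had 0 to 0.735 CPM and Psmb9 0.205 to 0.845 CPM. The log2 fold changes of Psmb8 and Psmb9 therefore rest on Control levels near 0. Pomp, the chaperone that matures the core and its immunoproteasome form, rose by 0.49 ± 0.11 (adjusted p = 0.00281), and Psmf1, an inhibitor that binds the core, by 0.32 ± 0.097 (adjusted p = 0.0194; 0.27 and 0.0595 without IFNG 2). Of the chaperones that assemble the 19S base, Psmd5, Psmd9 and Psmd10 did not pass (0.21 ± 0.11, -0.12 ± 0.12 and 0.021 ± 0.17), although Psmd5 did with totals that leave out the genes called higher (adjusted p = 0.0308). Akirin2, which brings proteasomes into the nucleus, fell by 0.37 (adjusted p = 0.00808), a call that ended with totals that leave out the genes called higher (-0.26, adjusted p = 0.0549). Zfand5, a stress-induced protein that stimulates the proteasome, fell by 0.45 (adjusted p = 0.00321). The other 6 associated proteins did not pass, the most abundant being Usp14, a deubiquitinase, at -0.16 ± 0.11 (adjusted p = 0.330).

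None of the 5 shuttle genes, which carry ubiquitinated proteins to the cap, passed, and 4 of the 5 had a log2 fold change below 0, from -0.23 for Ubqln2, the most abundant (adjusted p = 0.0597), to -0.048 for Ubqln1. Ubqln2 was called lower with library totals (adjusted p = 0.0290), in DESeq2 (0.0365), in limma-voom (0.0475) and without IFNG 3 (0.0359), and Rad23b without IFNG 3 (-0.26, adjusted p = 0.0275). Nfe2l1, the transcription factor that drives proteasome genes when the proteasome is impaired, stood at 0.14 ± 0.093 (adjusted p = 0.308). Ngly1, which deglycosylates Nfe2l1 on its way to activity, rose by 0.42 ± 0.11 (adjusted p = 0.00979), whereas Ddi2, which cleaves it, stood at -0.19 ± 0.13 (adjusted p = 0.340). The related factor Nfe2l2 rose by 1.47 ± 0.13, and Vcp, an ATPase that extracts proteins for degradation, stood at 0.17 ± 0.078 (adjusted p = 0.132; 0.0124 with totals that leave out the genes called higher). The tissue-restricted subunits Psma8 and Psmb11 had too few counts to be tested, with at most 0.164 and 0.264 CPM in any library.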

How the data were processed

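Per the file headers and values, the authors deposited raw counts per Ensembl gene, whole numbers for 12 libraries. STAR 2.4, DESeq2, GRCm39 and mm10 are named, without roles, per the submitters' processing notes. Read counter, annotation and strand setting: not given in the sources used here. Symbols and coordinates came from GENCODE M21 (GRCm38), which matched 42462 of 43629 rows; rows without a symbol held 0.133 to 0.158% of a library's counts and stayed in the tests. The genes, lists and tests were chosen with earlier results of these data known.

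IFNG was compared with Control in edgeR 4.0.16 (R 4.3.3): TMM scaling, filterByExpr, quasi-likelihood F-tests, two-sided, Benjamini-Hochberg adjustment at 0.05 over 15241 genes, no block. Standard errors are the absolute log2 fold change over the square root of F, and CPM uses TMM-scaled totals. All 34 genes passed the filter. The code was tested on simulated data. Nothing states that the replicates are separate cultures or animals. The p-values therefore reflect the spread among these 12 libraries alone, possibly a technical one; pairs of libraries within a group differed by more than sampling noise (at least 7.44 chi-square per gene). Values in each library are given for the genes that passed and for the most abundant of each group that did not; others, such as Psmc6, Psmd14 and Adrm1, were picked after their values were seen. Alternatives were DESeq2 size factors, library totals, totals without the genes called higher, no filter, at least 1 CPM in 6 libraries, a replicate block, DESeq2 1.42.0, limma-voom (limma 3.58.1), a test against a 1.2-fold change, and libraries left out. The result for 1 other promoter motif is not reported here.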

Additional observations from a re-analysis of the deposited data

Results flagged for a closer look

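The gap between the highest or lowest library and its neighbour was set against the whole range in 96 groups of 6 libraries. These were levels of single genes, mean log2 levels of groups of subunits, and pair ratios, and 8 stood apart. Chance alone flags about 5% of such groups if they are independent. These share libraries and genes, so the count of flags cannot be set against that share. In Control 4, Psmb1 had 120 CPM against 95.5 to 104 CPM in the other Control libraries, Psmd12 had 112 CPM against 76.5 to 88.7 CPM, and Psmd14 had 116 CPM against 72.1 to 79.5 CPM. Control 4 also stood apart in the mean log2 CPM (with 0.5 added) of all 34 genes, at 6.34 where its fellow Control libraries had 6.12 to 6.15, of the non-catalytic beta ring, at 6.38 against 6.12 to 6.22, and of the base ATPases, at 6.83 against 6.55 to 6.64. IFNG 5 stood apart in Psmg3, at 7.30 CPM against 3.91 to 5.001 CPM in the other IFNG libraries, and in the mean log2 CPM of the assembly chaperones, at 3.75 against 3.32 to 3.44.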

How the results depend on the processing

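The 13 genes that rose became 8 with library totals and no composition factor, 20 with totals that leave out the genes called higher, and 2 when tested against a fold change of 1.2; with each library left out in turn the count was 8 to 15, the 8 without Control 2, and 0 genes of the 34 fell under any alternative run. Over all genes, totals without the genes called higher gave 2954 higher and 750 lower (79.8% higher), library totals 1962 and 1859 (51.3% higher) and the main test 2184 and 1492 (59.4% higher); against a fold change of 1.2, 1493 were higher and 458 lower. Totals without the genes called higher shifted the median of all genes up by 0.11, and the genes left out were called in these same data. The median of the 34 genes lay 0.21 above that of all genes under all 3 scalings. Rescaling moves every gene by nearly the same amount, so this gap could hardly differ and is no test of the scaling. The 8 genes Psma2, Psma4, Psma5, Psma7, Psmb2, Psmb4, Psmd4 and Psmg4 passed in all 12 fits that leave out 1 library. With the replicate block 10 of the 34 rose, without Psmc5, Psmd3 and Psmd7 (adjusted p = 0.0621, 0.0569 and 0.0513). Deviations of same-numbered libraries correlated at -0.00096 to 0.124, not above 0.1 in every pair. Not every library correlated best with its own number. Correlations this small cannot show whether equal numbers mark a shared batch. No filter gave 10, DESeq2 14 and limma-voom 13. The causes of these changes were not tested. At 3.88 to 7.30 CPM, counting noise limits Psmg3 most.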
